A study of Homo sapiens with 6 samples.

Results

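The 10 genes described here are the TSC22 domain family (TSC22D1, TSC22D2, TSC22D3 and TSC22D4), the glucocorticoid receptor gene NR3C1 with its common targets FKBP5, PER1 and KLF9, and the forkhead factors FOXO1 and FOXO3. They were taken by symbol from a table of 26485 genes, and all 10 were among the 12107 genes with enough counts to be tested. The set was chosen on the rise of TSC22D3 with treatment, so the treatment values of TSC22D3 are given as a description, with no test. RNA was sequenced from H9 cells, a human line derived from a T cell lymphoma and described in the labels as cutaneous T lymphocytes. The 3 control libraries came from H9 cells given the vehicle DMSO, and the 3 PA4 libraries from H9 cells given PA4 at 1 µM, both for 24 h. PA4 is a compound known here by its code name only, which the series title calls a berbamine derivative. The question posed by the design was which genes accompany cell death under this compound. Results come from 1 cell line, and the labels do not say whether the libraries of a group were separate cultures, so p-values measure the spread between these libraries, which may be technical.

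The glucocorticoid receptor is a transcription factor held by chaperones in the cytoplasm until a steroid binds it, after which it enters the nucleus and raises or lowers the transcription of many genes. TSC22D3, also called GILZ for glucocorticoid-induced leucine zipper, is among its best known targets in lymphocytes, where the protein restrains inflammatory transcription factors. FKBP5 feeds back on the receptor complex, PER1 belongs to the circadian clock, and KLF9 is a zinc-finger repressor. FOXO1 and FOXO3 are kept out of the nucleus when AKT phosphorylates them, and TSC22D3 is also known as a FOXO target.

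Library totals ranged from 18282212 to 22875191 counts. The T cell label was checked against 12 T cell markers: CD3E had 2099 to 2529 counts and the skin-homing receptor CCR4 had 1808 to 2280, whereas CD2 had at most 1 and CD4 had 6 to 12. Summed levels of the T cell markers were 940 to 993 CPM (counts scaled to a common library size, TMM-adjusted) in control and 928 to 971 CPM with PA4. Enough counts for a test were held by 2 markers each of B cells, natural killer cells and epithelial cells. Of myeloid cells and fibroblasts there was 1 each. None of these was called by edgeR, and the other markers could not be called. With unadjusted edgeR p below 0.05 there was 1 each among the epithelial and natural killer markers. At that p, 2.69% of all tested genes were higher and 2.6% lower. The epithelial sum was the highest for these cell types, at 133 to 137 CPM in control against 140 to 142 CPM with PA4. Most of it was EPCAM, at 2387 to 3022 counts, with CDH1 at 127 to 178. The keratins of that list were nearly absent: KRT8 had at most 5 counts, KRT18 at most 4 and KRT19 0. The part of the epithelial sum in the results below was not tested. The sums of the other 4 lists overlapped between the groups.

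The table counts reads per gene and does not tell start sites apart. TSC22D3 lies on chromosome X at 107713221 to 107775988 of GRCh38, minus strand. GENCODE release 29 lists 17 protein-coding transcripts of it with 17 start sites spread over 60941 bases. Those of TSC22D1 and FOXO3 are fewer but spread wider, over 140302 and 96511 bases. NR3C1 has 13 start sites, and FOXO1 and KLF9 have 1 each. RefSeq promoter windows of GRCh38.p14 were matched by symbol for 9 of the 10 genes, 26 windows in all, 4 of them for TSC22D3, and the 250 bases before each start were searched on both strands. The 4 windows shown here each hold a match to a steroid, forkhead or clock motif, 1 window per gene. They are printed 5′ to 3′ on the gene's strand, trimmed to the stretch outside annotated exons, with the match in capitals. The TSC22D3 window belongs to a start site inside the gene and holds a FOXO motif. The TSC22D1 window holds 1 arm of the glucocorticoid response element, and those of PER1 and FKBP5 hold the E-box bound by the clock factors.

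TSC22D3 (chrX:107717136-107717312, minus strand, FOXO motif): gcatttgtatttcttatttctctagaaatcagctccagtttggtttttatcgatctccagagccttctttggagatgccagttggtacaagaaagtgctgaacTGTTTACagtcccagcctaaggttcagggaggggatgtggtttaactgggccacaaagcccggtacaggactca

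TSC22D1 (chr13:44474342-44474591, minus strand, arm of the glucocorticoid element): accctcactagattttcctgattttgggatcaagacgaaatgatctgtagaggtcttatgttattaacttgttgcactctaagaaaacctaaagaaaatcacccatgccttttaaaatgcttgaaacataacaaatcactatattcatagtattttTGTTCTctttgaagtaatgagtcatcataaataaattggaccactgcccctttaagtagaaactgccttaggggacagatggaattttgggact

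PER1 (chr17:8152436-8152654, minus strand, E-box): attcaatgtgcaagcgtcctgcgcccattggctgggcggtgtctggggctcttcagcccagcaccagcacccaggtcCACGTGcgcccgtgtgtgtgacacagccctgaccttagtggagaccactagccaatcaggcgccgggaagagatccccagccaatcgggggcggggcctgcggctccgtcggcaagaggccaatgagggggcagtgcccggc

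FKBP5 (chr6:35688943-35689165, minus strand, E-box): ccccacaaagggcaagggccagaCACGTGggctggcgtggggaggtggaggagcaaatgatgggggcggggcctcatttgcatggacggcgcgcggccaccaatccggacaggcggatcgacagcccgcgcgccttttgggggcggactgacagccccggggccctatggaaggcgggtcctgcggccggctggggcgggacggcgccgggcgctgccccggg

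The FOXO motif GTAAACA, seen in TSC22D3 as its reverse complement 147 bases before that start, occurred in 2.98% of all 35116 promoter windows of the same length and in 2 of the 26 windows of these genes, 1 of TSC22D3 and 1 of NR3C1. The single arm AGAACA occurred in 12.4% of all windows and in 1 of the 26, the TSC22D1 window shown. The full glucocorticoid response element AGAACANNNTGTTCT, 2 such arms facing each other, occurred in 1 of the 35116 windows and in 0 of the 26. The E-box CACGTG occurred in 6.35% of all windows and in 3 of the 26, 1 each of FKBP5, PER1 and TSC22D1. The sterol regulatory element TCACCCCAC occurred in 0.362% of all windows and in 0 of the 26. The GC box GGGCGGG, bound by KLF and SP factors, occurred in 31.5% of all windows and in 12 of the 26 (46.2%), which belong to 7 of the 9 genes. Most of the 26 windows hold more G and C than the median window, at 58%, and the shares were not matched for this. Windows of 1 gene can overlap each other. The single arm is part of the full element, and motifs were counted separately with overlaps allowed. A match is a description of letters and not evidence of binding, and an absent match says only that the letters are not in these 250 bases.

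TSC22D3 was higher in every PA4 library than in any control library. Its normalised counts were 17.4, 17.57 and 16.17 CPM in control replicates 1 to 3 and 23.22, 24.21 and 23.07 CPM in PA4 replicates 1 to 3. The groups did not overlap, and the lowest PA4 library stood above the highest control library. The mean rose from 17.05 ± 0.765 CPM to 23.5 ± 0.621 CPM (SD, n = 3 each), a 1.38-fold difference, or 0.46 on the log2 scale. The set was chosen on this rise, so its size is a description only. The variation between libraries of a group was small. The coefficient of variation was 4.48% in control and 2.64% with PA4, where counting error alone gives 5.53% and 4.56%. In libraries of whole cultures, a change in the number of cells of a type and a change in RNA per cell cannot be told apart, here and in all values below. Of the exon bases of TSC22D3, 1.49% are shared with NCBP2L on the opposite strand (not analysed here).

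None of the other members of the TSC22 family was called. TSC22D1, first described as a gene induced by transforming growth factor beta, had 168.7, 172.9 and 168.1 CPM in control against 172.7, 175.9 and 169.4 CPM with PA4. The groups overlapped, with a log2 fold change of 0.024 ± 0.036 (SE), a 95% interval of -0.053 to 0.10 and an edgeR adjusted p of 0.993. TSC22D2, the least studied of the family, had 28.17, 25.42 and 27.3 CPM in control against 24.01, 27.85 and 27.23 CPM with PA4. PA4 replicate 1 was the lowest of the 6 libraries and control replicate 1 the highest, and the log2 fold change was -0.032 ± 0.073 (SE) with an interval of -0.19 to 0.12 and an edgeR adjusted p of 0.997. TSC22D4, which is known to act in lipid metabolism of the liver and in the WNK kinase complex, had 49.66, 46.22 and 40.79 CPM in control against 47.68, 46.63 and 44.33 CPM with PA4. The PA4 values lay inside the control range, and the log2 fold change was 0.021 ± 0.066 (SE) with an interval of -0.12 to 0.16 and an edgeR adjusted p of 0.997. TSC22D4 shares 10.5% of its exon bases with C7orf61 on the same strand, a gene of 6 to 18 counts in a library.

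**Figure D1:**
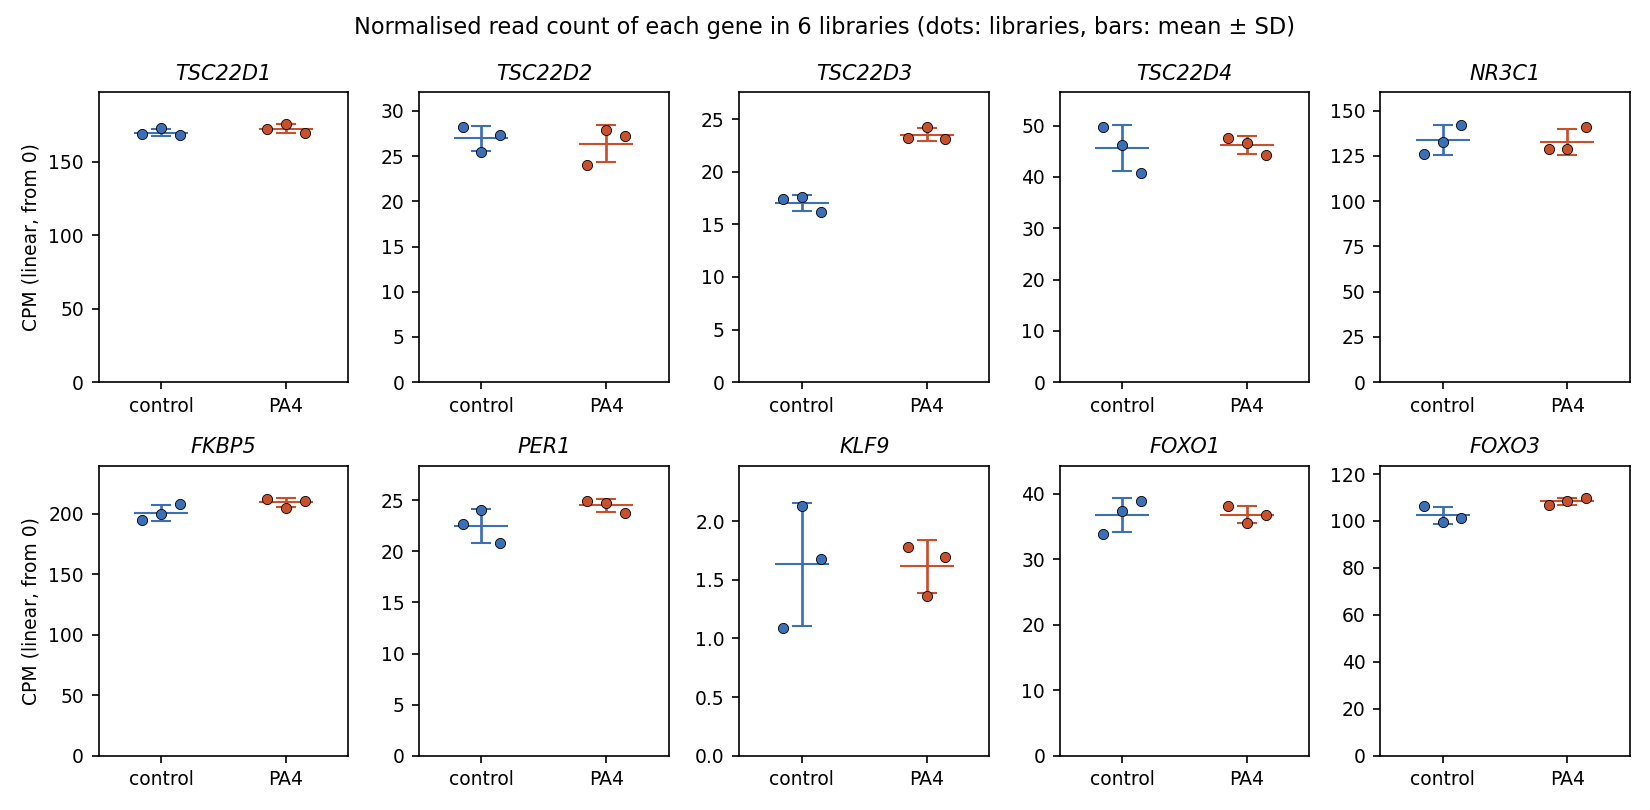
Normalised read counts in CPM (vertical axes, linear from 0) of the 10 genes in 3 control and 3 PA4 libraries, with dots for libraries and bars for mean ± SD. PA4 dots all lie above the control dots for TSC22D3, on which the set was chosen, at 23.07 to 24.21 against 16.17 to 17.57 CPM. They also do for FOXO3, by a smaller margin, and did so in 5.91% of all tested genes.

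The make-up of the family was compared per length, as RPKM (CPM per kilobase of the deposited gene model length). The same length serves a gene in every library. A length that differs from the transcripts in use is therefore not covered by the SDs. TSC22D1 gave 45.1% ± 1.73 of the family's summed RPKM in control and 43.5% ± 0.0935 with PA4 (SD, n = 3 each). TSC22D4 gave 34.3% ± 2 and 33.1% ± 0.899, and TSC22D2 gave 9.71% ± 0.622 and 9.02% ± 0.71 (SD, n = 3 each). TSC22D3 stood at 10.8%, 11.1% and 10.8% of the family in control and at 14.1%, 14.4% and 14.4% with PA4, a restatement of its rise that is given with no test. The summed level of the family was 57.6, 56.2 and 53.1 RPKM in control and 58.6, 59.7 and 57.3 RPKM with PA4, which overlapped.

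The receptor itself was at nearly the same level in both groups. NR3C1, on chromosome 5 at 143277931 to 143435512, had 125.8, 132.9 and 142.3 CPM in control against 128.6, 128.6 and 140.8 CPM with PA4. Control replicate 3 and PA4 replicate 3 were the highest libraries of their groups. The log2 fold change was -0.012 ± 0.05 (SE), and its 95% interval, from 0.922-fold to 1.07-fold, covers a narrow range around no change, with an edgeR adjusted p of 0.997.

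Of the other receptor targets, none was called. FKBP5, the co-chaperone that lowers the receptor's affinity for hormone, had 194.8, 199.7 and 207.8 CPM in control against 212.4, 204.8 and 210.5 CPM with PA4. PA4 replicates 1 and 3 were above every control library and PA4 replicate 2 was below control replicate 3. The log2 fold change was 0.059 ± 0.037 (SE) with an interval of 0.987-fold to 1.1-fold and an edgeR adjusted p of 0.985. PER1, a repressor within the clock that is also induced at once by steroid, had 22.68, 24.07 and 20.79 CPM in control against 24.95, 24.78 and 23.78 CPM with PA4. PA4 replicates 1 and 2 were above every control library, and the log2 fold change was 0.12 ± 0.07 (SE), with an interval of 0.98-fold to 1.21-fold and an edgeR adjusted p of 0.977. KLF9 was close to the limit of detection, with 21, 41 and 32 counts in control and 36, 31 and 31 counts with PA4. Its log2 fold change of -0.026 ± 0.25 (SE) had an interval of 0.685-fold to 1.41-fold and an edgeR adjusted p of 0.997, so a change of the size seen in TSC22D3 was not detectable in KLF9 at this depth.

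FOXO3, the more abundant of the forkhead factors here, had 106.4, 99.35 and 101.4 CPM in control against 106.9, 108.6 and 109.8 CPM with PA4. All 3 PA4 libraries lay above the control libraries, narrowly for PA4 replicate 1 against control replicate 1, and 5.91% of tested genes had PA4 libraries all above the control libraries. The log2 fold change was 0.083 ± 0.042 (SE), with a 95% interval of 0.995-fold to 1.13-fold and an edgeR adjusted p of 0.963. FOXO1, which maintains naive T cells and their homing receptors, had 33.81, 37.38 and 38.85 CPM in control against 38.12, 35.57 and 36.66 CPM with PA4. The PA4 values lay within the control range, and the log2 fold change was 0.0036 ± 0.063 (SE) with an interval of 0.913-fold to 1.1-fold and an edgeR adjusted p of 0.997. FOXO3 made up 68% ± 2.22 of the summed RPKM of this pair in control and 69.2% ± 0.951 with PA4 (SD, n = 3 each).

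**Figure D2:**
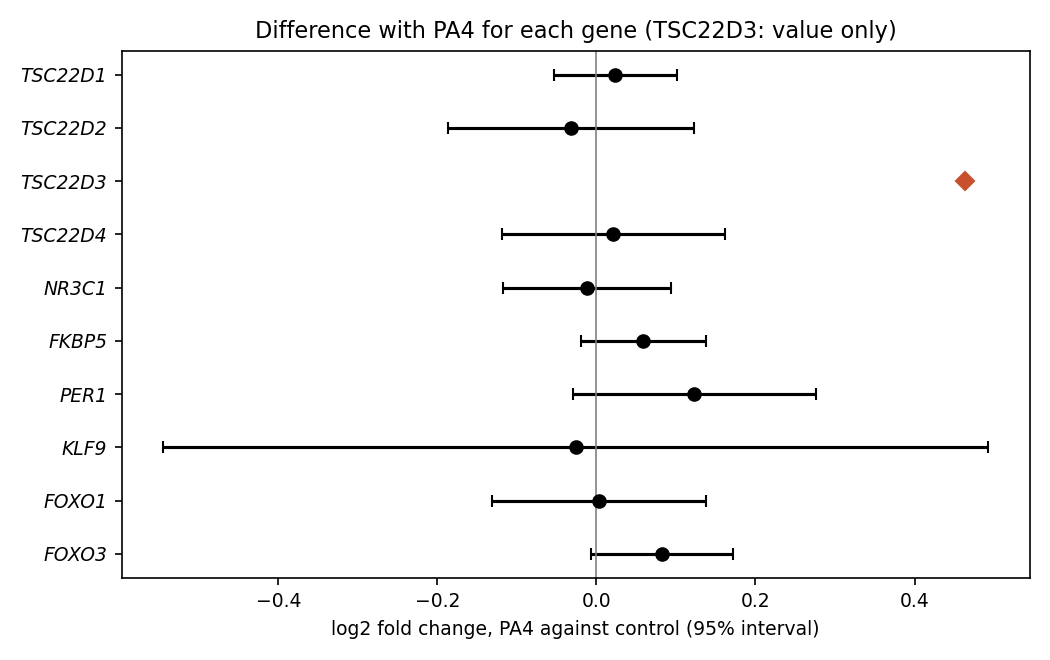
Log2 fold changes of PA4 against control (horizontal axis) for the 10 genes, with 95% intervals for 9 of them. TSC22D3, on which the set was chosen, is drawn as its value of 0.46 alone (red diamond), the intervals of the other 9 genes include 0, and KLF9 has the widest.

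Calls were made by edgeR's quasi-likelihood test at an adjusted p under 0.05. Among all 12107 tested genes 0.215% were called higher and 0.0165% lower. Because the set was chosen on TSC22D3, it is left out of the counts of these 10 genes. Of the remaining 9 genes, 0 were called, whether by edgeR, by DESeq2 or by limma-voom, and 0 had an edgeR p below 0.05 before adjustment (unadjusted), against 2.69% of tested genes higher and 2.6% lower at that p. Their median log2 fold change was 0.021, where the median over all tested genes was -0.004. Above 0 were 6 of 9, against 47.6% of all tested genes. In 1 of the 9, FOXO3, the PA4 libraries lay wholly above control, and in 0 wholly below. The shares over all tested genes were 5.91% wholly above and 5.31% wholly below. The 95% intervals of all 9 stayed inside a 1.5-fold change either way, as did those of 10543 of the 12107 tested genes.

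Levels per length in control spanned a wide range. They rest on the deposited length of each gene, whose error the SDs and p-values do not cover. The order from high to low was TSC22D1 at 25.1 ± 0.383 RPKM, TSC22D4 at 19.1 ± 1.87, FKBP5 at 18.9 ± 0.62, NR3C1 at 14.1 ± 0.875 and FOXO3 at 13.6 ± 0.478 (SD, n = 3). Below a gap came FOXO1 at 6.39 ± 0.452 RPKM, TSC22D3 at 6.07 ± 0.272, TSC22D2 at 5.395 ± 0.281 and PER1 at 4.78 ± 0.35, with KLF9 last at 0.314 ± 0.101 (SD, n = 3). Of the 9 neighbouring pairs, the 7 without TSC22D3 were compared over the 6 libraries of both groups by an exact two-sided sign-flip permutation test of log2 RPKM. The control libraries that set the order are among these 6, so the p-values are no independent test of the order. In 4 of these pairs the upper gene was higher in 6 of 6 libraries, each with an exact p of 0.0312, the smallest that 6 libraries allow, and an adjusted p of 0.0547, so none passed 0.05 after adjustment. These were TSC22D1 above TSC22D4, FKBP5 above NR3C1, FOXO3 above FOXO1 and PER1 above KLF9. The mean log2 difference was 0.39 ± 0.09, 0.46 ± 0.07, 1.13 ± 0.11 and 4.03 ± 0.34 in that order (SD, n = 6). For TSC22D4 and FKBP5, NR3C1 and FOXO3, and TSC22D2 and PER1 the order changed between libraries, with exact permutation adjusted p-values of 0.938, 0.938 and 0.35. The pairs with TSC22D3 are given by group and without a test. FOXO1 exceeded TSC22D3 in control by 0.073 ± 0.15 log2 (SD, n = 3), with control replicate 1 the other way round, whereas with PA4 the difference was -0.38 ± 0.08 and TSC22D3 was the higher in each library. TSC22D3 exceeded TSC22D2 by 0.17 ± 0.12 log2 in control and by 0.67 ± 0.10 log2 with PA4 (SD, n = 3 each).

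**Figure D3:**
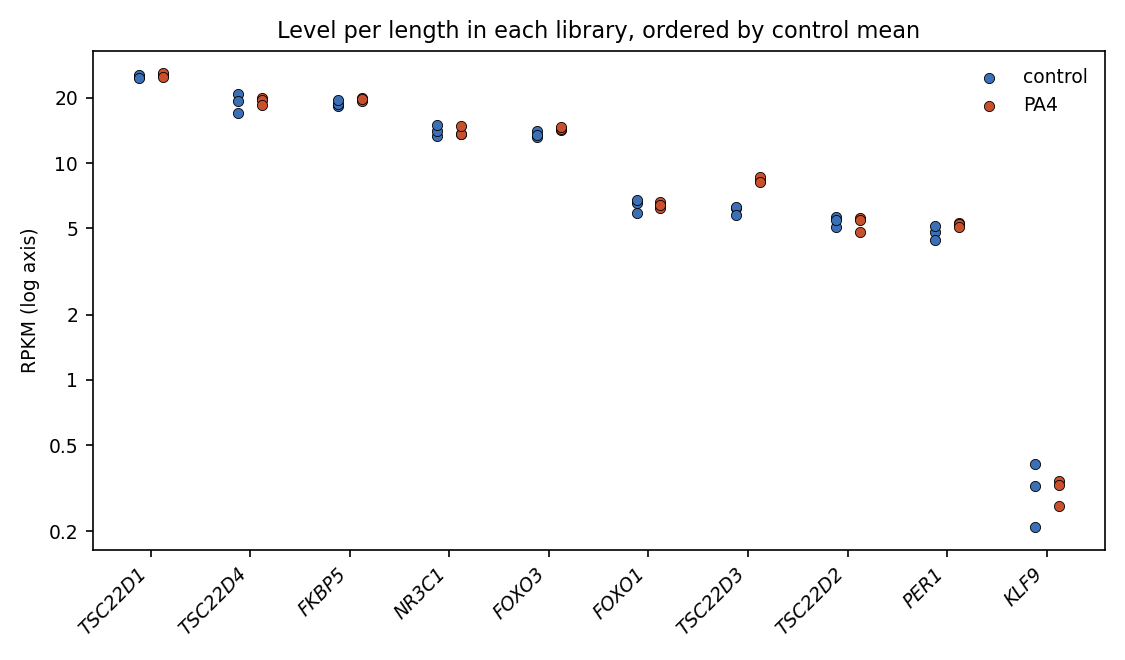
Level per length in RPKM (log axis) of each gene in each library, blue for control and red for PA4, ordered by the control mean. TSC22D3, at 6.07 RPKM in control, lies between FOXO1 and TSC22D2 there and above both with PA4, while KLF9 lies far below the other genes.

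The surrounding pathways were described with 8 lists of 186 distinct genes, of which 147 were tested. No list held a gene that edgeR, DESeq2 or limma-voom called, and with unadjusted edgeR p below 0.05 there were 9 genes higher (6.12%) and 0 lower, where the shares over all tested genes were 2.69% and 2.6%. The PA4 libraries lay wholly above control in 15 of the 147 genes (10.2%) and wholly below in 7 (4.76%), where the shares over all tested genes were 5.91% and 5.31%. Counts for single lists below are to be read against these same shares, and in lists this short 1 gene moves the share by several percent. Over all lists 55.1% of tested genes had a log2 fold change above 0, where the share over all tested genes was 47.6%.

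Among 29 tested genes of 36 that glucocorticoids are known to induce, 0 were called, 1 was higher and 0 lower with unadjusted p below 0.05, and the median log2 fold change was 0.032. The 1 gene was NFKBIA, the inhibitor that holds NF-kB in the cytoplasm, at 33.5 ± 1 CPM in control against 37.95 ± 0.79 CPM with PA4 (SD, n = 3 each), with an edgeR adjusted p of 0.562. ZFP36, which destabilises cytokine messages, was at 12.65 ± 0.816 and 14.06 ± 0.179 CPM (SD, n = 3 each), and the groups did not overlap, with an edgeR adjusted p of 0.963. PIK3IP1, a brake on PI3 kinase that is also on the FOXO list, was at 5.48 ± 0.955 and 6.48 ± 0.53 CPM (SD, n = 3 each), and the groups overlapped. Of the 29 genes, 4 lay wholly above control (13.8%) and 2 wholly below (6.9%). Those below were CXCR4 and SMAP2, named after their values were seen, at -0.066 ± 0.037 and -0.062 ± 0.039 log2 (SE). DUSP1, a phosphatase commonly used as a marker of steroid action, had 4 to 10 counts in a library and was not tested, and PDK4, SOCS1, IL1R2 and CD163 had no counts in any library. These last genes were named for their low counts after their values were seen.

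Of 22 tested chaperones, coregulators and steroid-handling genes around the receptor, 0 were called, 1 was higher and 0 lower with unadjusted p below 0.05, and the median was 0.0094. The 1 gene was NCOA2, a coactivator bound by the receptor, at a log2 fold change of 0.12 ± 0.05 (SE) and an edgeR adjusted p of 0.941. EP300, a histone acetyltransferase, was at 0.076 ± 0.044 (SE), and HSD11B2, which inactivates cortisol, was at 0.19 ± 0.12 (SE), with edgeR adjusted p-values of 0.977 and 0.988. All 22 intervals lay within 1.5-fold. The 12 tested FK506-binding proteins, relatives of FKBP5, had 0 called and 0 with unadjusted p below 0.05, with a median of -0.015. FKBP7, a chaperone of the endoplasmic reticulum, was at 9.01 ± 0.368 CPM in control against 7.87 ± 0.55 CPM with PA4 (SD, n = 3 each) with no overlap, and FKBPL and FKBP2 were at -0.13 ± 0.13 and 0.042 ± 0.093 log2 (SE).

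The 27 tested FOXO relatives and targets had 0 called, 3 higher and 0 lower with unadjusted p below 0.05, and a median of 0.022. TXNIP, an inhibitor of thioredoxin and of glucose uptake, was at 97.5 ± 0.967 CPM in control against 108.7 ± 2.76 CPM with PA4 (SD, n = 3 each), and all 3 PA4 libraries were above control. Its log2 fold change was 0.15 ± 0.04 (SE), with an edgeR adjusted p of 0.272, and of 0.0165 with GC-corrected offsets. GABARAPL1, an autophagosome protein, was at 45.3 ± 1.32 and 51.4 ± 3.31 CPM (SD, n = 3 each), without overlap and with an edgeR adjusted p of 0.628. The third was BCL6, a germinal centre repressor of low level here, named after its values were seen, at 0.30 ± 0.14 log2 (SE) and an edgeR adjusted p of 0.943. BCL2L11, the death gene BIM that both glucocorticoids and FOXO factors are known to induce in lymphocytes, was also named after its values were seen. It was at 172.7 ± 1.53 CPM in control against 168.3 ± 3.59 CPM with PA4 (SD, n = 3 each), with the PA4 libraries wholly below control. Its log2 fold change was -0.038 ± 0.036 (SE), with an edgeR adjusted p of 0.993. Of the 27 genes, 5 lay wholly above control (18.5%) and 2 wholly below (7.41%).

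The 30 tested kinases, phosphatases and export factors upstream of FOXO had 0 called and 0 with unadjusted p below 0.05, a median of 0.0044, and all 30 intervals within 1.5-fold. The members with the largest differences were SIRT1, a deacetylase of FOXO proteins, at 0.10 ± 0.06 log2 (SE), the kinase SGK1 at 0.081 ± 0.066 and the PI3 kinase subunit PIK3R1 at 0.066 ± 0.042. In the circadian loop around PER1, 17 genes were tested, 0 were called, 1 was higher and 0 lower with unadjusted p below 0.05, and the median was -0.024. That gene was TEF, an output factor of the clock, at 5.14 ± 0.812 and 6.53 ± 0.658 CPM (SD, n = 3 each), with an edgeR adjusted p of 0.837 and overlapping groups. NPAS2, a partner of BMAL1, and NR1D1, a clock repressor, were at -0.16 ± 0.10 and -0.090 ± 0.11 log2 (SE).

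Among the 10 tested relatives of KLF9, 0 were called, 3 were higher and 0 lower with unadjusted p below 0.05, and the median of 0.079 was the highest of the 8 lists. KLF10, known as an early target of transforming growth factor beta, was at 32.4 ± 2.3 CPM in control against 38.6 ± 1.8 CPM with PA4 (SD, n = 3 each). Its groups did not overlap, and the log2 fold change was 0.25 ± 0.07 (SE), with an edgeR adjusted p of 0.26. That adjusted p was 0.0337 with GC-corrected offsets and 0.0259 without control replicate 1, so the call depends on these settings. KLF11, its closest relative, was at 24.5 ± 1.61 and 27.6 ± 0.998 CPM (SD, n = 3 each), also without overlap, with an edgeR adjusted p of 0.868. The third was KLF6, named after its values were seen, at 88.3 ± 2.51 and 94.5 ± 1.01 CPM (SD, n = 3 each) with an edgeR adjusted p of 0.92, and KLF7 was at 0.14 ± 0.09 log2 (SE). Of the partners of TSC22 proteins and the WNK kinases, 10 were tested, 0 were called and 0 were with unadjusted p below 0.05, with a median of 0.0059. NRBP1, the pseudokinase that binds TSC22 proteins, was at 0.069 ± 0.052 log2 (SE), the kinase STK39 at -0.081 ± 0.054 and the ion cotransporter SLC12A2 at 0.082 ± 0.058.

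**Figure D4:**
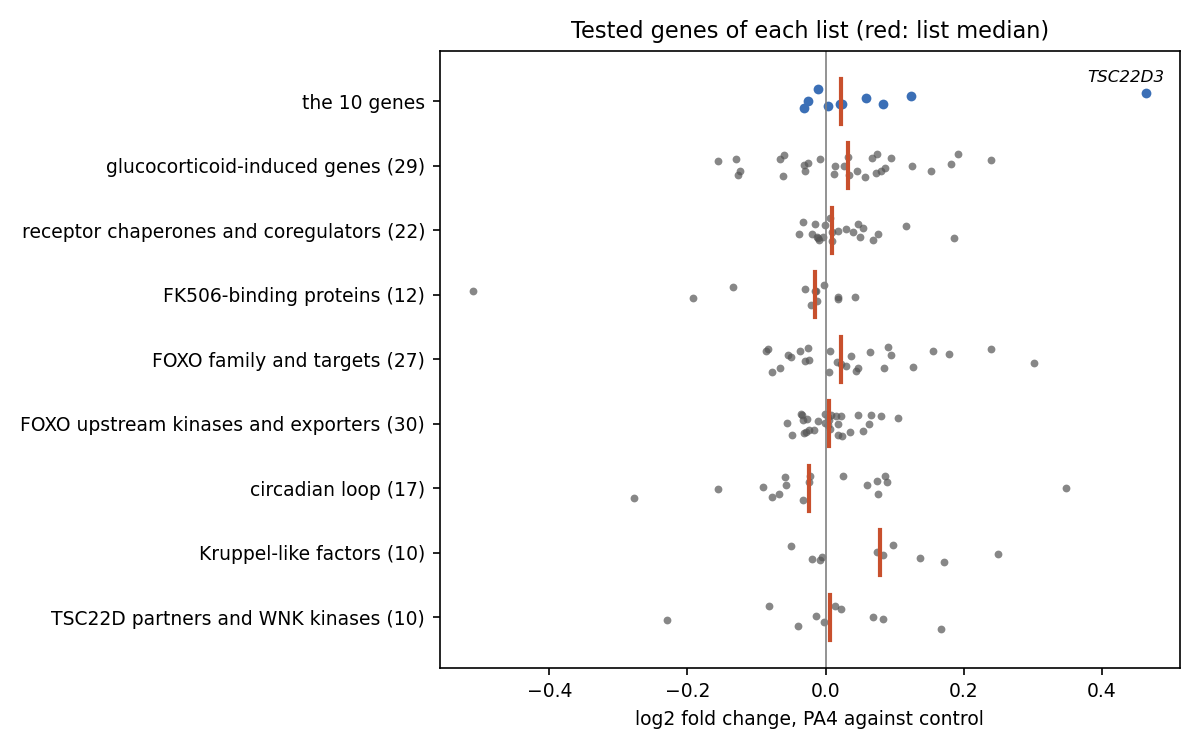
Log2 fold change of PA4 against control (horizontal axis) of each tested gene in 8 pathway lists (grey dots, number tested in brackets) and of the 10 genes (blue), with the median in red. List medians lie between -0.024 and 0.079. TSC22D3, at 0.46, lies to the right of every gene of the 8 lists, but the set was chosen on its rise.

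The genes whose pattern over the 6 libraries was most like that of TSC22D3 were sought by the smallest root mean square difference of log2 CPM, centred on the control mean, among 8563 tested genes averaging at least 10 CPM. The 5 nearest were FADS1 at 0.051, CYP51A1 at 0.056, FDFT1 at 0.06, FADS2 at 0.065 and LSS at 0.066, where the median over all compared genes was 0.34. Counting error alone gives TSC22D3 a coefficient of variation of 5.53% in control and 4.56% with PA4. The order among the 5 was not tested. FADS1 and FADS2 are fatty acid desaturases, and FDFT1, LSS and CYP51A1 are enzymes of sterol synthesis. Centred values in PA4 replicates 1 to 3 were 0.45, 0.51 and 0.44 for TSC22D3 and 0.43, 0.42 and 0.40 for FADS1. Control libraries were not level for all of them: centred control values ran from -0.11 to 0.13 for FADS2 and from -0.11 to 0.095 for LSS, against -0.013 to 0.018 for FADS1. The measure takes in the difference between the groups that chose TSC22D3 and is given as a description. Genes that do not rise lie far from TSC22D3 on it by construction, and the median over all compared genes reflects this.

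**Figure D5:**
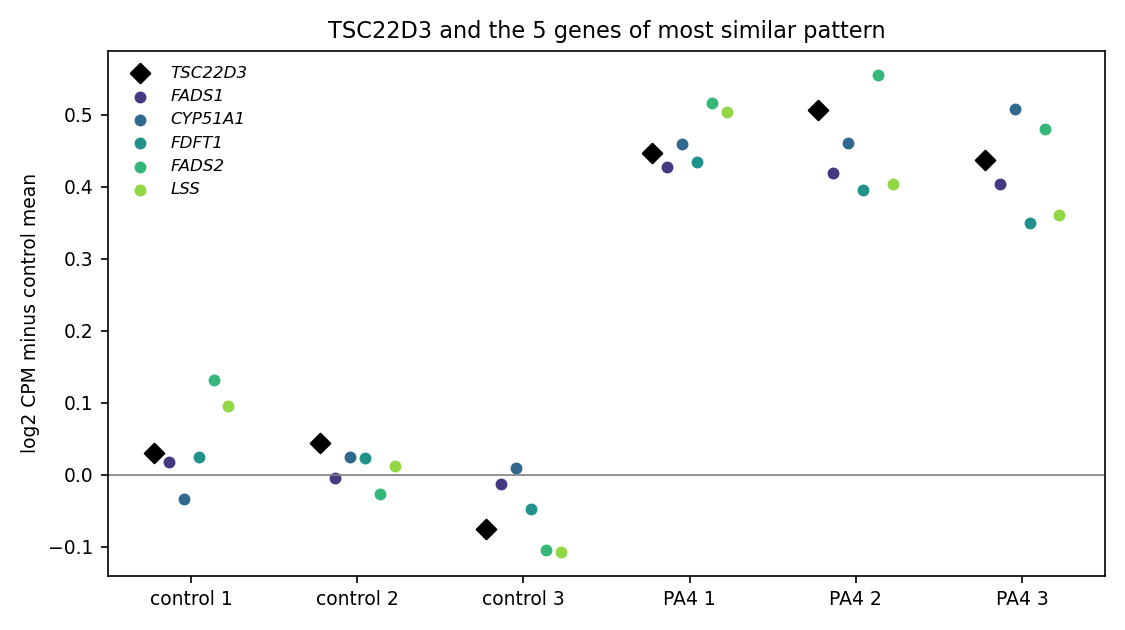
Log2 CPM minus the control mean (vertical axis) in each of the 6 libraries for TSC22D3 (black diamonds) and the 5 genes nearest to it in pattern. Control values lie between -0.11 and 0.13, and the PA4 values of TSC22D3 are 0.44 to 0.51, with those of the other genes from 0.35 to 0.56.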

How the data were processed

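The authors deposited raw counts of reads per gene symbol for 6 libraries, not pooled, and the length of each gene model. Trimmomatic 0.39, fastp 0.23.2, STAR 2.7.9a, featureCounts and Subread 1.6.4 are named, with hg38, in the submitters' processing notes. The sources used here give neither annotation nor strand setting. Counts were fitted over all genes in R 4.3.3 with edgeR 4.0.16 (filterByExpr, TMM, glmQLFit, glmQLFTest, two-sided, all 6 libraries, no covariate), which tested 12107 genes, with Benjamini-Hochberg adjustment and calls at an adjusted p under 0.05. SE were derived from the F statistic. The procedure was run on counts simulated with the spread estimated from these same libraries. They carried no GC effect between libraries, so the simulation does not cover such effects. Level comparisons with TSC22D3, planned as tests, were kept as descriptions because its treatment difference chose the set. The members, the 8 lists and the tests were chosen with earlier results of these data known. Named genes were the 10 members, of each list the 3 with the largest differences among those averaging at least 5 CPM, any called list gene, and the 5 nearest to TSC22D3 among those averaging at least 10 CPM. All 197 list entries matched by symbol. Alternatives covered scaling, filters, limma 3.58.1 voom, DESeq2 1.42.0 on unfiltered counts, single libraries left out, a replicate block and GC-corrected offsets, for which 94.5% of tested genes had a GC value.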

Additional observations from a re-analysis of the deposited data

How the results depend on the processing

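None of the 9 members other than TSC22D3 was called in any of the 15 alternatives in which it was tested. The log2 fold change of TSC22D3 was 0.43 to 0.49 over them, as a description. Over all tested genes, against 26 called higher and 2 lower, the counts were 53 and 9 without a low-count filter, 50 and 9 with a replicate block, 81 and 17 after GC-corrected offsets, and 90 and 22 with both of these, and leaving out 1 library gave 16 (without control replicate 2) to 50 (without control replicate 1) higher and 1 to 24 lower. List genes called higher went from 0 to 1 with no low-count filter, the replicate block or without control replicate 1 (range leaving 1 out 0 to 1), and to 2 with GC-corrected offsets, with or without the replicate block. The genes gained were KLF10, at 0.24 to 0.30 log2, and with GC-corrected offsets also TXNIP, at 0.15. The cause was not tested.

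Members near 0 changed sign without being called. FOXO1 went from 0.0036 to -0.0025 with library size alone, -0.0035 with GC-corrected offsets, -0.0022 with these and the replicate block, and -0.053 to 0.047 leaving 1 library out. KLF9 went from -0.026 to 0.015 with limma-voom and -0.25 to 0.21 leaving 1 library out, and was not tested with a filter at 10 CPM. Leaving 1 library out gave -0.055 to 0.035 for NR3C1, -0.072 to 0.033 for TSC22D2 and -0.051 to 0.088 for TSC22D4. Among levels, leaving 1 library out gave -0.0427 to 0.0327 for TSC22D4 above FKBP5 (higher than 0 without control replicate 3 and, at 0.012, PA4 replicate 3) and -0.021 to 0.0284 for NR3C1 above FOXO3 (lower than 0 without control replicate 3 and, at -0.0072, control replicate 2). Across genes, libraries sharing a number had deviations correlated at 0.161, -0.0892 and 0.416, and not every library correlated best with its own number, so the numbers were not taken to pair the libraries. KLF9, at 21 to 41 counts, is limited by depth.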
